A study of Mus musculus with 4 samples.

Results

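Mesothelial genes were examined in gonadal white adipose tissue (gWAT) of female mice with and without Dnmt1 in adipocytes, as 10 genes chosen by symbol: Msln, Upk3b, Upk1b, Lrrn4, Wt1, Krt19, Krt8, Krt18, Gpm6a and Nkain4. All 10 were among the 17335 genes of the expression table. In the AD1KO library, 8 of the 10 were higher than in fl/fl by a log2 ratio of at least 0.5, at 1.68 to 2.1 times the fl/fl level. By the same rule 14.3% of the 15839 tested genes were higher, and 7.57% of the 10339 genes with at least 250 reads. The 10 genes were chosen with earlier results of these data known, so the shares describe them and test nothing. Each group was 1 library of pooled RNA. Upk3b, a uroplakin that marks mesothelium, went from 30.55 to 64.26 FPKM, and mesothelin (Msln) from 15.24 to 27.01 FPKM. FPKM gives mapped fragments per kilobase of transcript, scaled to library size, so a level also depends on what else the library holds. The keratins Krt8 and Krt18 were the exceptions, at 1.21 and 1.03 times the fl/fl level.

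The mesothelium is the single cell layer that covers the peritoneal organs, the gonadal fat pads among them. Its cells arise from mesoderm and yet carry simple epithelial features: they rest on a basement membrane, bear microvilli, secrete a lubricating fluid, and hold keratin filaments and surface glycoproteins that most mesodermal cells lack. Visceral fat depots have this covering and subcutaneous depots do not, and Wt1 is also active in progenitors of visceral fat. DNMT1, the product of the gene deleted here, is the methyltransferase that copies CpG methylation onto newly made DNA strands.

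Both groups were female mice fed a high-fat diet (HFD) for 18 weeks; their age at the start and their strain background are not given for these samples in the sources used here. The fl/fl animals were littermate controls carrying the Dnmt1 allele with loxP sites around exons 4 and 5, and the AD1KO animals carried the same floxed allele together with Cre driven by adiponectin, a gene of mature adipocytes. Equal amounts of RNA of 4 animals were pooled per group, so each group was 1 library, no spread between animals could be measured, and no test between the groups was made. The intervals below are 95% counting intervals on the reads behind each value and compare these libraries only. The reads were recovered from the steps of the FPKM values, which summed to 17778421 reads for fl/fl and 17526377 for AD1KO, and the 20 most abundant genes took 18.7% and 21.2% of the reads. Dnmt1 itself was at 6.99 FPKM in fl/fl and 3.33 FPKM in AD1KO (log2 ratio -1.07, interval -1.27 to -0.87), a value over the whole gene and over all cells of the tissue, not over the deleted exons alone. A pool of a whole depot cannot separate more mesothelial cells from more RNA per mesothelial cell. Neither can it set these apart from a changed share of other cells in the pool, whose genes are described further on.

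The RefSeq promoter table used (build GRCm38.p6) matched 5 of the 10 genes, all but Msln, Upk1b, Wt1, Krt19 and Nkain4, with windows of 300 bases that run from 250 bases before to 50 after the start. The windows below show the genes with the largest ratio (Upk3b) and the smallest ratios (Krt18 and Krt8), with Gpm6a and Lrrn4 between them, 5′ to 3′ on the strand of the gene, with each CpG, the dinucleotide that DNMT1 methylates, in capitals. Upk3b lies at chr5:136038246-136038545 on the plus strand, Gpm6a at chr8:54779184-54779483 on the plus strand, Lrrn4 at chr2:132880813-132881112 on the minus strand, Krt8 at chr15:102004293-102004592 on the minus strand and Krt18 at chr15:102027966-102028265 on the plus strand.
Upk3b: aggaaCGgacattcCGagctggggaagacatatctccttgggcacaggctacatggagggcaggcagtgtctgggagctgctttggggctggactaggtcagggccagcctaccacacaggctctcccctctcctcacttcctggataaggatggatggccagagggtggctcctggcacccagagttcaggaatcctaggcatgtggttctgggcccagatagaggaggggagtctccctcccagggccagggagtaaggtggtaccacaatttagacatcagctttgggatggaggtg
Gpm6a: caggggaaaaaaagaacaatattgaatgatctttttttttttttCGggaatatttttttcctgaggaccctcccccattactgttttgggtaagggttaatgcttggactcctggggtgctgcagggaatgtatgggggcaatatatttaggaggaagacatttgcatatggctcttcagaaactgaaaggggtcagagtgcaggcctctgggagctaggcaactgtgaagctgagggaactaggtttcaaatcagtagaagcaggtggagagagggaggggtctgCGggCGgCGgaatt
Lrrn4: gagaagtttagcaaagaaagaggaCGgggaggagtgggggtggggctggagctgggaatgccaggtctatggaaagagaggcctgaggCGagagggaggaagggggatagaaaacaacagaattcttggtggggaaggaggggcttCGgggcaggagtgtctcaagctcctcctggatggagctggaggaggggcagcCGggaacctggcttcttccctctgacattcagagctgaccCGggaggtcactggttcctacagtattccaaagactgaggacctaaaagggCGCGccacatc
Krt8: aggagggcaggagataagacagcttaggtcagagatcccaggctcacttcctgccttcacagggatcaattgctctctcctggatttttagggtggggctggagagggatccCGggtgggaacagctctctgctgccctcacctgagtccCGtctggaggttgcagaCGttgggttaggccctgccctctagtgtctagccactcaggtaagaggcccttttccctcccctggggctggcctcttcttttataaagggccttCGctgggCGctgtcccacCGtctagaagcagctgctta
Krt18: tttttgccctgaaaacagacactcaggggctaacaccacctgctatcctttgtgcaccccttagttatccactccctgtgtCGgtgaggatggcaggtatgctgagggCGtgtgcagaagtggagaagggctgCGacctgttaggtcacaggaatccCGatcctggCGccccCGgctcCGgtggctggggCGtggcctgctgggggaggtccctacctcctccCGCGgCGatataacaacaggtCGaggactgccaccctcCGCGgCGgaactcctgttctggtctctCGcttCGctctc

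The Upk3b window held 2 CpG, and 85.9% of the 32851 promoter windows in the table held at least as many. Gpm6a held 4 in this window and 6 in a second annotated start at chr8:54954478-54954777, Krt8 held 6 and Lrrn4 held 7, against a median of 7 over all windows. Krt18 held 17 CpG, a number reached by 31.4% of all windows. Of the windows shown Krt18 had the most CpG and Upk3b the fewest. Between them Lrrn4 (log2 ratio 0.75) held more CpG than Krt8 (0.27). With windows for 5 of the 10 members, a relation of CpG number to ratio was not tested. The letters GGAATG, the core that TEAD factors bind, were searched on both strands. They occurred once each in the Upk3b, Gpm6a and Lrrn4 windows shown. They were absent from both keratin windows and from the second Gpm6a window, and 14.7% of all windows held them. TATAAA, the TATA box letters, occurred as a pair of overlapping matches on opposite strands in Krt8 and once in the second Gpm6a window, and 13.6% of all windows held them. GTGGGAG, a short form of the WT1 site, was in 9.73% of all windows and in none of the windows of these 5 genes. These matches describe letters only, and methylation at these starts was not measured in fl/fl or AD1KO mice.

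Transcripts of the 4 members that encode surface proteins other than uroplakins (Msln, Gpm6a, Nkain4 and Lrrn4) were higher in AD1KO. Msln encodes a glycoprotein anchored to the surface of mesothelial cells by a lipid tail, and its gene lies on chromosome 17 (mm9, 25885559 to 25891272, minus strand). It had 15.24 FPKM from 541 reads in fl/fl and 27.01 FPKM from 947 reads in AD1KO, a log2 ratio of 0.83 (interval 0.67 to 0.98). The AD1KO value lay well above the fl/fl value, whose own counting interval ended at 16.6 FPKM.

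Gpm6a, a membrane glycoprotein of the proteolipid family best known from neurons, lies on chromosome 8 (56040081 to 56146231, plus strand). Its level was 6.19 FPKM in fl/fl (313 reads) and 12.44 FPKM in AD1KO (620 reads), a log2 ratio of 1.01 (interval 0.81 to 1.20). Nkain4, a membrane protein that interacts with the sodium pump, lies on chromosome 2 (180669477 to 180689404, minus strand) and had 10.85 FPKM in fl/fl (159 reads) and 21.93 FPKM in AD1KO (318 reads). Its log2 ratio was 1.01 (interval 0.74 to 1.30). Exons of Nkain4 overlap a transcript on the opposite strand, Gm14341, and since it is not stated whether reads were counted by strand, reads of the pair cannot be told apart. Gpm6a and Nkain4 thus had about the same ratio at different levels, each near double in AD1KO.

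Lrrn4, a membrane protein with leucine-rich repeats, lies on chromosome 2 (132694041 to 132706627, minus strand) and was the least abundant member in fl/fl. It had 3.63 FPKM in fl/fl (215 reads) and 6.11 FPKM in AD1KO (357 reads), a log2 ratio of 0.75. The interval of 0.50 to 1.00 starts at the threshold of 0.5 that the study's methods set for a changed gene.

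**Figure D1:**
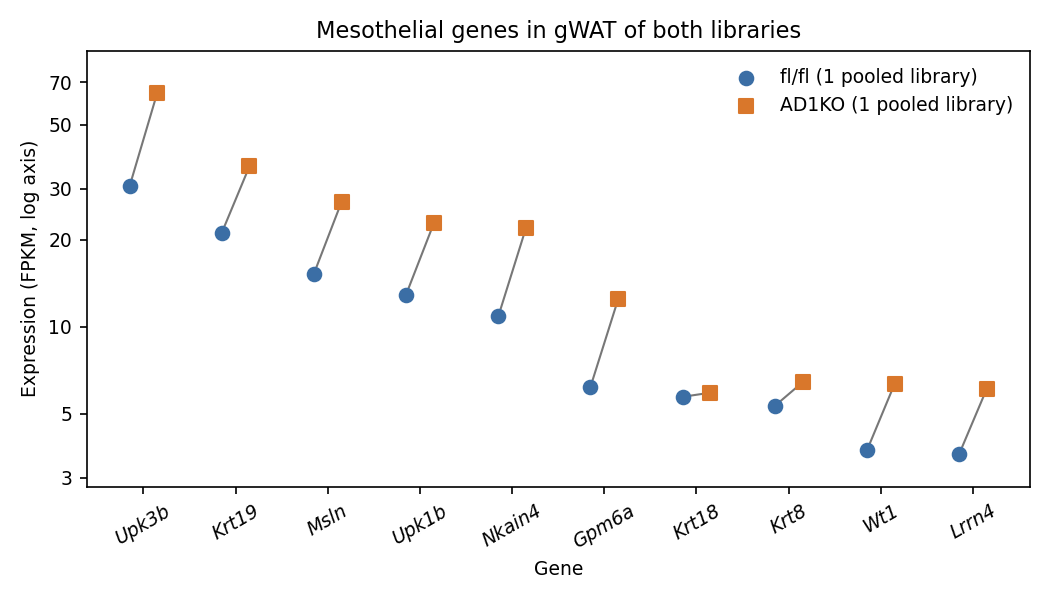
Levels of the 10 mesothelial genes in FPKM on a log axis, with a circle for the fl/fl pool and a square for the AD1KO pool of each gene, joined by a line. The markers are well apart for 8 genes and close together for Krt8 (5.32 and 6.42 FPKM) and Krt18 (5.72 and 5.91 FPKM).

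The uroplakins, tetraspanin-associated membrane proteins first known from the plaques of bladder urothelium, are represented by Upk3b and Upk1b. Upk3b lies on chromosome 5 (136514366 to 136521173, plus strand) and was the most abundant of the 10 in both libraries, with 30.55 FPKM from 1034 reads in fl/fl and 64.26 FPKM from 2149 reads in AD1KO. Its log2 ratio of 1.07 (interval 0.97 to 1.18) was the largest of the 10. Upk1b, the tetraspanin of the pair, lies on chromosome 16 (38773297 to 38800316, minus strand) and had 12.91 FPKM in fl/fl (376 reads) and 22.75 FPKM in AD1KO (655 reads), a log2 ratio of 0.82 (interval 0.63 to 1.01). The intervals of the 2 uroplakins overlap, and within each library Upk3b stood at 2.37 times Upk1b in fl/fl and 2.82 times in AD1KO.

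Wt1 was the only transcription factor among the members, a zinc finger protein of the mesothelium, the gonad and the kidney. It lies on chromosome 2 (104966686 to 105013773, plus strand). Its level was 3.74 FPKM in fl/fl (193 reads) and 6.35 FPKM in AD1KO (324 reads), a log2 ratio of 0.76. As for Lrrn4, the lower end of the interval (0.50 to 1.03) sat at the threshold.

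The 3 keratins, which form the intermediate filaments of simple epithelia and mesothelium, did not move together. Krt19, a type I keratin on chromosome 11 (100002124 to 100009979, minus strand), had 21.10 FPKM in fl/fl (473 reads) and 35.81 FPKM in AD1KO (793 reads), a log2 ratio of 0.76 (interval 0.60 to 0.93). Krt8, the type II keratin of the classical simple epithelial pair, had 5.32 FPKM in fl/fl (158 reads) and 6.42 FPKM in AD1KO (189 reads), a log2 ratio of 0.27 (interval -0.04 to 0.59). Krt18, its type I partner, had 5.72 FPKM (130 reads) and 5.91 FPKM (132 reads), a log2 ratio of 0.05 (interval -0.32 to 0.40). For Krt8 and Krt18 the counting interval included 0. The interval of Krt8 also included the threshold, so a difference of that size between these libraries was not excluded. The interval of Krt18 ended below the threshold, at 0.40. Krt8 (101827142 to 101834773, minus strand) and Krt18 (101858647 to 101862457, plus strand) are neighbours on chromosome 15, 23874 bases apart.

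The interval of Krt18 did not overlap that of any of the 8 higher members, and that of Krt8 did not overlap those of Msln, Upk3b, Upk1b, Krt19, Gpm6a and Nkain4. It overlapped those of Lrrn4 and Wt1. Among the 8 higher members only Upk3b and Krt19 had intervals that did not overlap. Overlap of 2 intervals does not show that the ratios are equal, and differences in ratio between members were not tested. Within a library, Krt19 stood at 3.69 times Krt18 in fl/fl and 6.06 times in AD1KO, on the FPKM scale. Krt8 stood at 0.93 times Krt18 in fl/fl and 1.09 times in AD1KO. Filaments form from pairs of a type I and a type II keratin. Over Krt18 and Krt19 the summed type I level was 26.8 FPKM in fl/fl and 41.7 FPKM in AD1KO, and over Krt7 and Krt8 the summed type II level was 13.0 and 16.7 FPKM. Type I stood at 2.07 times type II in fl/fl and at 2.50 times in AD1KO.

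**Figure D2:**
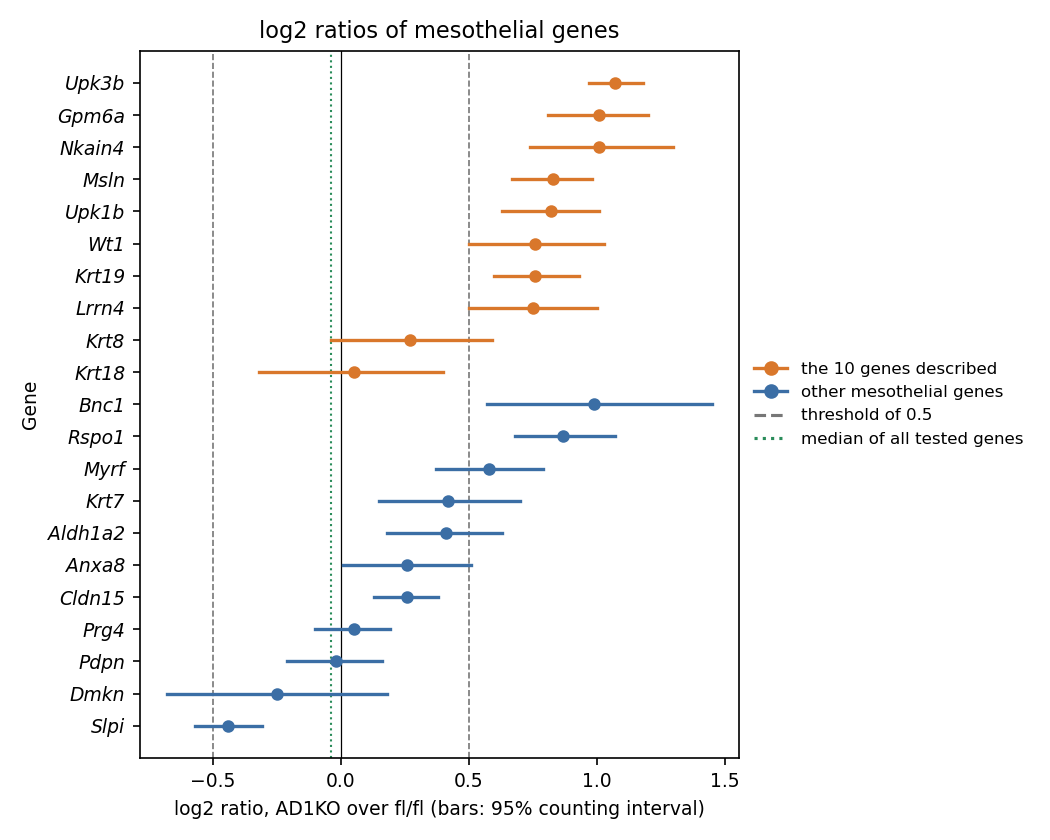
Log2 ratio of FPKM, AD1KO over fl/fl, for the 10 genes (orange) and 11 other mesothelial genes (blue, described further on), with bars for the 95% counting interval, dashed lines at 0.5 in each direction and a dotted line at the median of all tested genes (-0.04). The bars of 8 of the 10 genes lie at or above 0.50 and those of Krt8 and Krt18 include 0, while the other mesothelial genes run from 0.99 for Bnc1 to -0.44 for Slpi.

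By the threshold of 0.5 on the log2 ratio, 8 of the 10 members were higher, 0 lower and 2 neither. Over the 15839 genes that reached 0.1 FPKM in either library, 14.3% were higher by the same rule and 19.1% were lower. With the whole counting interval at or above the threshold, all 8 still counted, against 4.19% of the genes. The members had 262 to 3183 reads over both libraries, and among the 10339 genes with at least 250 reads 7.57% were higher, 13.2% were lower and 3.88% had the whole interval above the threshold. The median log2 ratio was 0.79 over the 10 members, -0.04 over all tested genes and -0.05 over genes with at least 250 reads. Ordered by ratio, 5.02% of tested genes were at or above Upk3b, 8.64% at or above Lrrn4, and 41.3% at or above Krt18.

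**Figure D3:**
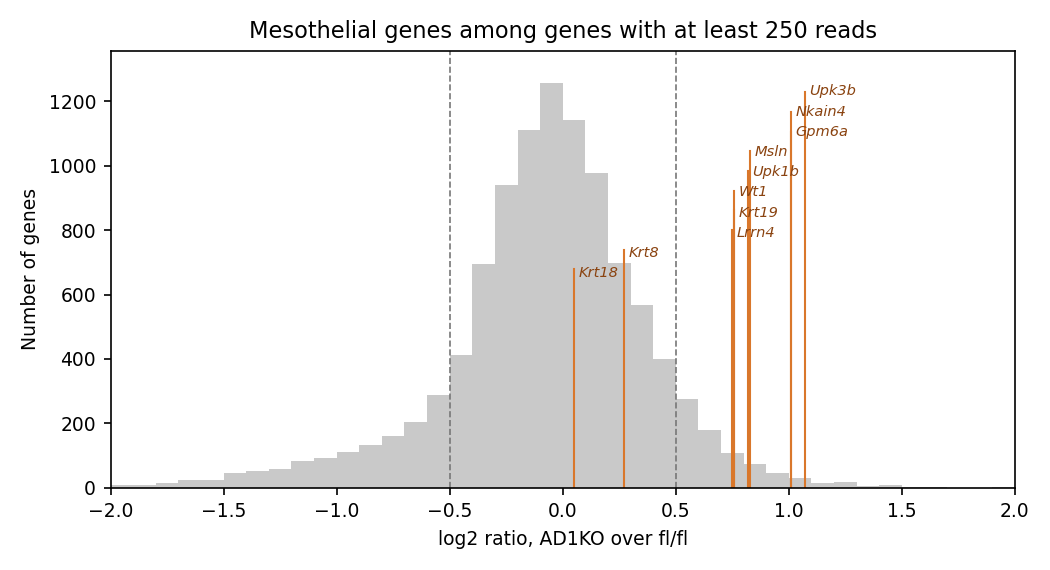
Histogram of the log2 ratio, AD1KO over fl/fl, over the 10339 genes with at least 250 reads in both libraries together, in number of genes per bin, with orange lines for the 10 mesothelial genes and dashed lines at 0.5 in each direction; the heights of the orange lines carry no value, and 62 genes beyond 2 in either direction are left out. Lines of 8 genes lie in the right tail, between 0.75 and 1.07, and that of Krt18 (0.05) lies near the centre.

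Summed over the 10 members, the level was 115 FPKM in fl/fl and 209 FPKM in AD1KO, from 3592 and 6484 reads, a log2 ratio of the reads of 0.87 (interval 0.81 to 0.93). Without the 3 keratins the sum went from 83.1 to 161 FPKM (0.94, interval 0.88 to 1.01). Krt8 and Krt18 together had 11.0 FPKM in fl/fl and 12.3 FPKM in AD1KO, from 288 and 321 reads (0.17, interval -0.06 to 0.41). Upk3b was the largest contributor to the sum of 10 and made up 26.5% of the summed FPKM in fl/fl and 30.7% in AD1KO.

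The order of the levels was nearly the same in both libraries. From the top it ran Upk3b, Krt19, Msln, Upk1b, Nkain4 and Gpm6a in each. Below these, fl/fl had Krt18, Krt8, Wt1 and Lrrn4, and AD1KO had Krt8, Wt1, Lrrn4 and Krt18, so that Krt18 went from rank 7 to rank 10. In fl/fl the counting intervals of the levels overlapped between the neighbours Msln and Upk1b, Upk1b and Nkain4, Gpm6a and Krt18, Krt18 and Krt8, and Wt1 and Lrrn4. In AD1KO they overlapped between Upk1b and Nkain4 and between neighbours from Krt8 down to Krt18, whose levels lay between 5.91 and 6.42 FPKM.

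Other genes known from mesothelium, a list of 13 of which 11 were in the table, were less uniform. Of these 11, 3 were higher by the threshold, 0 lower and 8 neither, with a median log2 ratio of 0.26. Bnc1, the zinc finger protein basonuclin, had 0.84 FPKM in fl/fl (67 reads) and 1.68 FPKM in AD1KO (133 reads), a ratio of 0.99 (interval 0.57 to 1.45). Rspo1, a secreted enhancer of Wnt signalling, had 11.40 and 20.89 FPKM, a log2 ratio of 0.87 (interval 0.68 to 1.07). Myrf, a membrane-bound transcription factor, went from 3.27 to 4.88 FPKM (0.58, interval 0.37 to 0.79). Bnc1 and Rspo1 thus lay within the range of the 8 higher members, 0.75 to 1.07, and Myrf lay below it.

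The other 8 genes of that list lay between -0.44 and 0.42. Krt7, a type II simple keratin, was at 7.64 FPKM in fl/fl and 10.25 FPKM in AD1KO, a log2 ratio of 0.42 (interval 0.15 to 0.70). The retinoic acid enzyme Aldh1a2 had a log2 ratio of 0.41, the tight junction claudin Cldn15 and the annexin Anxa8 each 0.26, and the lubricating proteoglycan Prg4 0.05. Podoplanin (Pdpn), which lymphatic endothelium and stromal cells also carry, had -0.02, and dermokine (Dmkn) -0.25. Slpi, a secreted inhibitor of leukocyte proteases, had the most abundant transcript of the list and went the other way, from 84.71 FPKM in fl/fl (1162 reads) to 62.57 FPKM in AD1KO (848 reads), a log2 ratio of -0.44 (interval -0.57 to -0.31). Summed over the 11 genes the level was 196 FPKM in fl/fl and 197 FPKM in AD1KO, a sum in which Slpi weighs most. Muc16 and Calb2 were not analysed here.

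Relatives of the members, chosen after their values were seen, were compared within each family. Gpm6b, the paralog of Gpm6a, was at 6.13 FPKM in fl/fl and 6.31 FPKM in AD1KO, a log2 ratio of 0.04 (interval -0.15 to 0.24), whereas Gpm6a began at 6.19 FPKM and had a ratio of 1.01. Nkain1 went from 7.75 to 7.25 FPKM (log2 ratio -0.10, interval -0.33 to 0.13), beside a ratio of 1.01 for Nkain4. Lrrn2 went from 4.12 to 5.12 FPKM (0.31), and its interval of 0.06 to 0.57 overlaps that of Lrrn4. The intervals of Gpm6a and Gpm6b did not overlap, nor did those of Nkain4 and Nkain1. Relatives with few reads included Nkain2 (0.18), whose interval of -1.02 to 1.56 overlaps that of Nkain4. Lrrn1 (0.32) and Lrrn3 (-1.58) also had few reads.

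Among genes named as keratins, 24 were in the table and 7 reached 1 FPKM in a library, with log2 ratios from 0.05 to 1.07. Beside the members and Krt7 these were Krt79, Krt222 and Krt80. Krt79, a keratin of skin glands, was at 6.91 FPKM in fl/fl (185 reads) and 14.48 FPKM in AD1KO (382 reads), a log2 ratio of 1.07 (interval 0.81 to 1.33), at least as large as that of any keratin member. Krt222 had 0.70 (interval 0.24 to 1.15) and Krt80 had 0.11 (interval -0.26 to 0.48). Keratins with an interval that included 0 were thus found inside the 10 members (Krt8 and Krt18) and outside them (Krt80), as were keratins with the whole interval above 0.5 (Krt19 and Krt79).

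**Figure D4:**
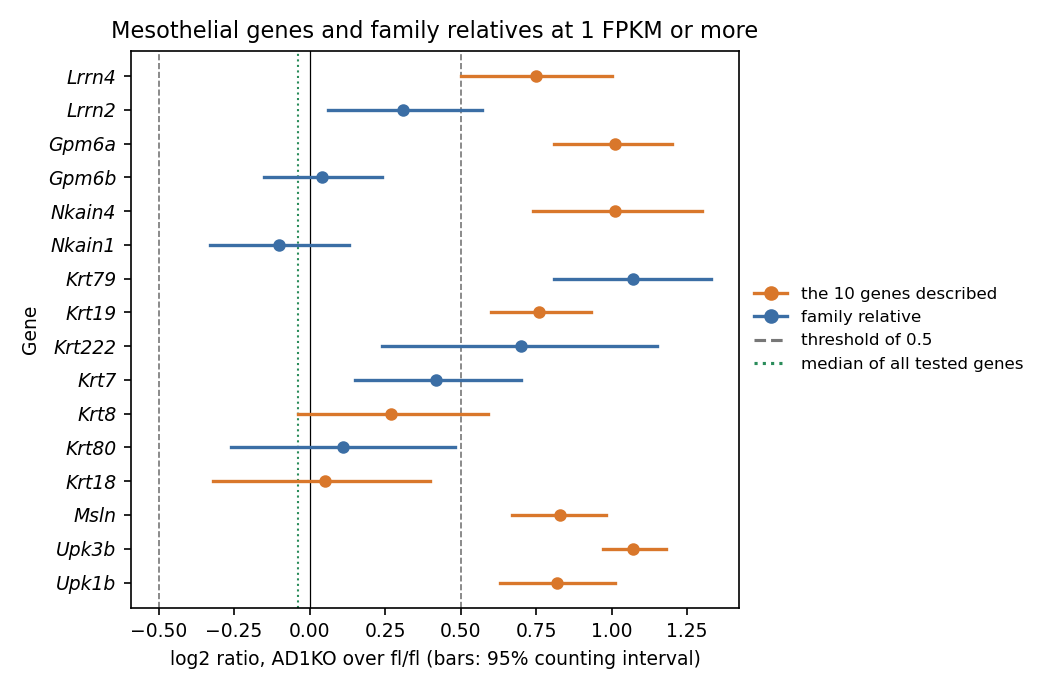
Log2 ratio of FPKM, AD1KO over fl/fl, with bars for the 95% counting interval, for members (orange) and relatives of the same gene family (blue) that reached 1 FPKM; dashed lines mark 0.5 in each direction and the dotted line the median of all tested genes. Gpm6a and Nkain4 (both 1.01) lie apart from Gpm6b (0.04) and Nkain1 (-0.10), and the keratins run from 1.07 for Krt79 to 0.05 for Krt18.

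Genes of epithelia that share some of the members were measured beside them. The uroplakins of the bladder plaque other than Upk1b were near 0: Upk1a had 13 reads in fl/fl and 9 in AD1KO, Upk2 had 7 and 2, and Upk3a had 5 and 2. The basal urothelial genes Krt5 and Trp63 had 9 and 25 reads in fl/fl and 0 and 16 in AD1KO. All 5 of this list were below the threshold of -0.5, with a median of -1.21, but on few reads, 59 in all in fl/fl and 29 in AD1KO. Epithelial genes that mesothelium lacks or holds at low level were also low: Epcam had 0.78 and 0.62 FPKM, Cdh1 0.23 and 0.08 FPKM, Cldn3 1.18 and 0.60 FPKM, Cldn4 0.07 and 0.03 FPKM, Cldn7 0.45 and 0.20 FPKM, and the transcription factor Elf3 0.33 and 0.03 FPKM. Of the 5 tested genes of that list 4 were lower and 0 higher. Over both lists only Krt5 and Elf3 had the whole counting interval below the threshold. The urothelial list summed to 2.00 FPKM in fl/fl and 0.920 FPKM in AD1KO and the 6 epithelial genes to 3.04 and 1.56 FPKM, and the part of these cells in the levels of the 10 members was not tested.

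Genes of the female reproductive tract were lower in AD1KO. Ovgp1, the oviductal glycoprotein, went from 3.51 to 0.17 FPKM (149 to 7 reads), lactotransferrin (Ltf), also a neutrophil granule protein, from 5.09 to 0.20 FPKM (236 to 9 reads), and Wfdc2 from 3.64 to 0.39 FPKM (38 to 4 reads). Pax8 had 11 reads and Foxj1 had 3 reads in fl/fl, and both were listed at 0 in AD1KO. All 4 tested genes of the list were lower, with a median log2 ratio of -4.45, or -3.74 with the AD1KO value of Pax8 set at the 3 reads that a listing of 0 allows. The sum over the 5 genes of the list went from 12.6 to 0.760 FPKM (437 to 20 reads). Krt8, Krt18 and Krt19 are also keratins of such epithelia, and the part of this difference in the keratin levels was not tested. Of the 3 tested ovary genes, the steroid transport gene Star was higher (log2 ratio 0.76), the steroid enzyme gene Cyp11a1 lower (-1.15) and the inhibin gene Inha neither (0.08), and all 6 ovary genes in the table summed to 4.13 FPKM in fl/fl and 4.20 FPKM in AD1KO.

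Marker genes of adipocytes and of macrophages also differed between the libraries. All 6 adipocyte genes were higher in AD1KO, with a median log2 ratio of 0.56 and a range of 0.51 (Fabp4) to 0.96 (Cidec). All 6 macrophage genes were lower, with a median of -1.04 and a range of -1.32 (Itgax) to -0.80 (Mrc1), and their sum went from 3393 to 1685 FPKM. The ratios of Msln, Upk1b, Lrrn4, Wt1 and Krt19 lay within the range of the adipocyte genes, those of Upk3b, Gpm6a and Nkain4 above it and those of Krt8 and Krt18 below it. Relative to the median of the adipocyte list the median of the 10 members was 0.23, and 1 member was higher and 1 (Krt18, at -0.51) lower by the threshold. By the same measure 817 of the 15839 tested genes were higher and 9490 lower, with a median of -0.60. The part of the adipocyte and macrophage shifts in the mesothelial levels was not tested.

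Of the remaining lists, smooth muscle had 3 of 4 genes higher, up to 1.57 for Cnn1 and 1.18 for Tagln, and all 5 endothelial genes were neither, with ratios of 0.10 (Pecam1) to 0.49 (Kdr). Stromal progenitor genes had a median of 0.12, with Pi16 at -0.70 and Dpp4 at 0.50. Among transcription factors of visceral mesenchyme, the neighbours of Wt1 in development, Osr1 went from 8.92 to 17.58 FPKM (301 to 585 reads), a log2 ratio of 0.98 (interval 0.77 to 1.18). Tcf21 had 0.48 (interval 0.10 to 0.86), Tbx18 -0.68 (interval -1.23 to -0.16) and Gata4, with 19 and 10 reads, -0.92 (interval -2.18 to 0.27). By the threshold 1 of the 5 factors was higher, 2 were lower and 2 neither, beside 0.76 for Wt1. Of the lower ones 0 had the whole interval below the threshold, and that of Gata4 included 0. Of the desmosome genes, the plaque protein Pkp2 had 25.11 and 41.61 FPKM, a log2 ratio of 0.73, and Jup 26.95 and 34.84 FPKM (0.37), while Dsp had 7 reads in fl/fl and was listed at 0 in AD1KO.

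**Figure D5:**
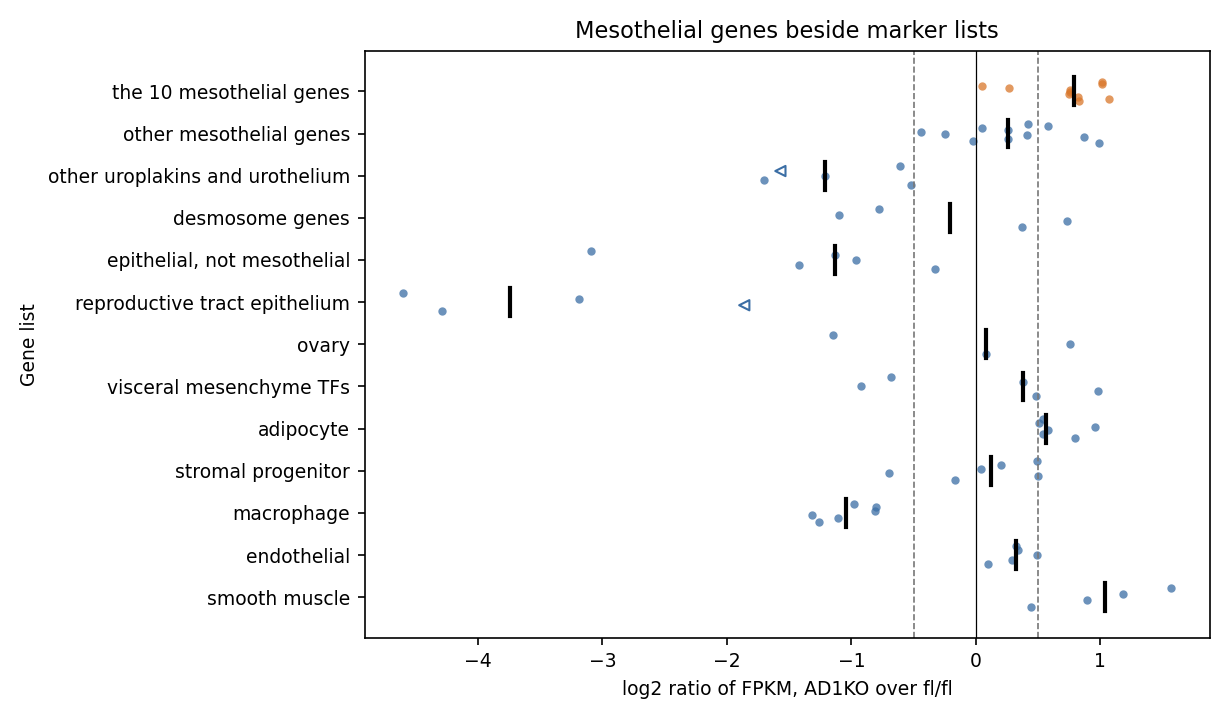
Log2 ratio of FPKM, AD1KO over fl/fl, for the tested genes of each list, with points for genes, a black line for the median and dashed lines at 0.5 in each direction; open triangles are genes listed at 0 in AD1KO, drawn at the ratio that 3 reads would give. The 10 mesothelial genes (median 0.79) lie to the right with the adipocyte (0.56) and smooth muscle (1.03) lists, and the macrophage (-1.04) and reproductive tract lists lie to the left.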

How the data were processed

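RNA of gWAT was sequenced on a BGISEQ-500 from oligo(dT)-selected mRNA, and reads were aligned to the mouse genome by the authors' service provider. The paper names build mm9, while the deposited record lists both mm9 and mm10. The aligner and the counting program are not given in the sources used here. The authors deposited 1 table of both libraries, whose values behave as FPKM with 2 decimals (the header names no unit) and hold 0.01 in place of 0. The table also holds the authors' fold change, P-value and FDR columns, which were not used. The 2 RRBS samples were not analysed here.

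Values of 0.01 were set to 0, and log2 ratios were computed after adding 0.01 FPKM, which understates changes of low genes. A gene was kept if either library reached 0.1 FPKM, and it counted as higher or lower from a log2 ratio of 0.5 up or down, the study's threshold. Reads were recovered from the FPKM steps with a length correction of 116 bases. Of low values, 83.5% in fl/fl and 82.5% in AD1KO lay within 0.15 read of a whole number. The depths and the length correction were fitted to these same values, so the shares are no independent check. Ratios carry exact Clopper-Pearson intervals and levels exact Poisson intervals, both at 95%. Both cover counting error only, since each group was 1 pooled library. Reads carry no molecular identifiers, so copies of the same molecule would count as separate reads and the intervals may be too narrow. The recovery was tested on simulated data.

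The members and gene lists were chosen with earlier results of these data known. Genes named are all 10 members, Dnmt1, keratins of at least 1 FPKM and the genes in the table of the mesothelial, urothelial, epithelial and reproductive tract lists, with at most the 2 lowest and 2 highest ratios of each other list. The other family relatives were chosen after their values were seen. Positions are from GENCODE vM1 (mm9) and promoter windows from RefSeq (GRCm38.p6). Alternatives changed the pseudocount, scaling, filter, threshold and members. Tables were handled with pandas 2.3.3 under Python 3.11.15, intervals came from SciPy 1.17.1 with NumPy 2.4.6, and plots from Matplotlib 3.10.9.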

Additional observations from a re-analysis of the deposited data

How the results depend on the processing

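No paired analysis was possible because each group was 1 pooled library, and no replicate could be left out. Under the other pseudocounts, the scalings and the use of recovered reads, the log2 ratios of the 10 members stayed within their counting intervals in 60 of 60 values, with the 8 higher members between 0.62 and 1.16, Krt8 between 0.23 and 0.36 and Krt18 between 0.04 and 0.14. The count of members above the threshold was 8 under each pseudocount, scaling and filter and when the whole interval had to pass it. With a threshold of 1, 3 members counted as higher. Counts over all genes depended more on the settings, from 2265 higher and 3029 lower: 965 and 1661 with a pseudocount of 1 FPKM, 910 and 1417 with a threshold of 1, 664 and 1313 with the whole interval past 0.5, and 1281 higher among genes of at least 1 FPKM. Upper quartile scaling moved the share of calls that were higher from 42.8% to 51.7% and the median of all genes to 0.05. In comparisons chosen after seeing the data, 783 genes were higher and 1361 lower among those with at least 250 reads, and the members' median relative to the adipocyte list was 0.23. Depth limits Krt8 and Krt18 most, with 347 and 262 reads over both libraries. The spread between animals was not measured.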
